A study of Mus musculus with 6 samples.

Results

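The genes described here are 9 genes of the inflammatory CC chemokine system, taken by symbol from the 18848 genes of the deposited expression table. They comprise 7 secreted chemokines (Ccl2, Ccl3, Ccl4, Ccl5, Ccl7, Ccl8 and Ccl12) and 2 receptors (Ccr1 and Ccr2). All 9 were found, and each was followed across every deposited cell class and every tumour of a single-cell RNA-seq study of mouse prostate tumours.

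CC chemokines are small secreted proteins, named for a pair of adjacent cysteines, that draw leukocytes along a gradient by binding receptors coupled to G proteins. Ccr2, carried by inflammatory monocytes that leave the bone marrow, binds Ccl2, Ccl7 and Ccl12. Ccr1 binds Ccl3, Ccl5 and Ccl7 among others. In tumours these ligands are best known for bringing in monocytes that become macrophages, and Ccl5 is also a product of activated cytotoxic lymphocytes.

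The tumours were of PPS-ICBR, a prostate cancer cell line with the labelled phenotype of resistance to immune checkpoint blockade (ICB), taken from C57Bl6 mice. There were 4 groups of 3 tumours each, and all groups bore tumours of this line. The SD group ate standard diet. The BD group ate chow made up with 1,3-butanediol, a compound that the body turns into a ketone body. The ICB group ate standard diet and received 0.2 mg of antibodies to PD-1 and CTLA-4 biweekly, and the BD+ICB group received both. The labels name separate tumours but no mice, so a p-value measures the spread between these tumours, which may share animals.

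Leukocytes were taken from a Percoll gradient after enzymatic dissociation, so that cancer and stromal cells in the data are those that came through this step. SD and BD tumours were pooled into 1 droplet library and ICB and BD+ICB tumours into another, each tumour carrying its own hashtag antibody. Diet was therefore compared within a library, whereas blockade cannot be told apart from the library. Listed tumour sizes were 870 to 2348 in SD and 172 to 203 in BD tumours. They were 289 to 1116 in ICB and 23 to 90 in BD+ICB tumours. The diet groups of a library did not overlap in size, so diet and tumour size cannot be told apart either. The deposited table held 5749 cells in 19 classes, 1215 from SD, 490 from BD, 2314 from ICB and 1730 from BD+ICB tumours. A tumour gave 70 to 913 cells and 510984 to 13007506 UMIs (unique molecular identifiers, each 1 captured RNA molecule), with median UMIs per cell of 4545 to 10817. The 2 libraries shared 1931 barcodes, of which 1866 differed more than 20-fold in UMIs, and 1 deposited cell was the shallower copy of such a barcode.

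Class names are the authors'. The markers of each named type bore out most of them: all 3 neutrophil classes had 8 of 8 neutrophil markers above 20 CPM (counts per 1000000 UMIs), and each macrophage class had 10 of 10 macrophage markers. The class named Nos2+ dendritic had 0 of 8 dendritic markers and 9 of 10 macrophage markers above that level, so its name was not borne out by these markers. The mesenchymal class had 6 of 6 mesenchymal markers, with 7 of 10 macrophage and 5 of 8 neutrophil markers beside them. It also had 2 of 5 epithelial markers, with the list summed at 1115 CPM. The cancer class had 6 of 6 mesenchymal and 2 of 5 epithelial markers, the latter list summed at 909 CPM. The epithelial markers thus did not tell these 2 classes apart.

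In the mouse genome (build GRCm38.p6) the chemokine genes lie in 2 groups on chromosome 11. The first group holds Ccl2 (chr11:82035577-82037452), Ccl7 (chr11:82045712-82047525), Ccl12 (chr11:82101845-82103399) and Ccl8 (chr11:82115185-82116799), with 8259 bases between Ccl2 and Ccl7 and 11785 between Ccl12 and Ccl8. The second group, 1408978 bases on from Ccl8, holds Ccl5 (chr11:83525778-83530518), Ccl3 (chr11:83647843-83649378) and Ccl4 (chr11:83648624-83664683). The annotated spans of Ccl3 and Ccl4 overlap, and whether counting used the strand is not given in the sources used here, so the split of UMIs between them is uncertain. The receptors lie on chromosome 9, Ccr1 at chr9:123962126-123968692 and Ccr2 at chr9:124101918-124109140, with 133225 bases between them.

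RefSeq promoter windows were given for 5 of the 9 genes (Ccl3, Ccl8, Ccl12, Ccr1 and Ccr2). Those of Ccl8 and Ccl12 are shown because these neighbours, on the same strand, had different leading classes of macrophages by mean level. With at least 30 cells per tumour and class both led in Trem2+ M2 macrophages. The class of other macrophages then had enough cells only in ICB 3 (54 cells). Each is the 250 bases before the gene's start on the plus strand of GRCm38.p6, chr11:82114935-82115184 for Ccl8 and chr11:82101595-82101844 for Ccl12, with matches to TATAAA or TATAAG on either strand in capitals.
Ccl8: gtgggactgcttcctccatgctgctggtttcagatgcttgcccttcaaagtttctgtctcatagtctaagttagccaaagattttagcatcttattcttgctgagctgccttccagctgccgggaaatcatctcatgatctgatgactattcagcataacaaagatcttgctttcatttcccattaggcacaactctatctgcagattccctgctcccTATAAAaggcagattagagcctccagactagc
Ccl12: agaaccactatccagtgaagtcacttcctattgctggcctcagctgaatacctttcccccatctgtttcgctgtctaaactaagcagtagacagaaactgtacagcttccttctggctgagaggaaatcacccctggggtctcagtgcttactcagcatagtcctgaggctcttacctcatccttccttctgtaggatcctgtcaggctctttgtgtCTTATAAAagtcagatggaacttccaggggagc
The TATAAA match lay at -32 to -27 from the start of Ccl8 and at -31 to -26 from that of Ccl12. In Ccl12 it overlapped CTTATA, the reverse of TATAAG, at -33 to -28. Of 32851 promoter windows of this length, 12.4% held TATAAA and 6.65% held TATAAG. The letters TGANTCA (AP-1, in 6.75% of all windows) and TTGCNNAA (C/EBP, 9.56%), and an NF-kB and an interferon response motif by name, were searched on both strands too, and none of them was in the Ccl8 or Ccl12 window.

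Each gene's level in a class is its CPM among the UMIs of that class in a tumour, averaged over tumours with at least 10 cells of the class. UMIs count transcript ends, and levels are compared between classes for 1 gene, not between genes. The classes were defined by the authors from these same cells, so differences between classes are given as a description, with no test.

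**Figure D1:**
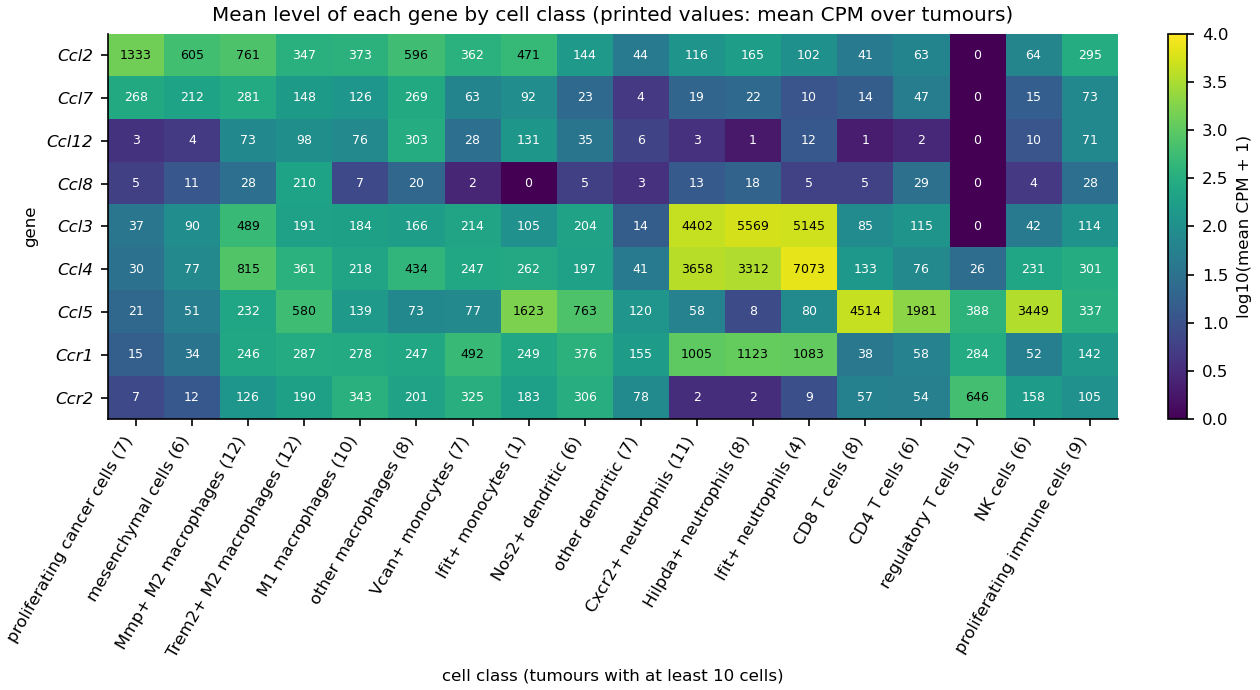
Mean level of the 9 genes (rows) in 18 cell classes (columns, with the number of tumours that had at least 10 cells of the class), coloured by log10(mean CPM + 1) with the mean CPM printed. Ccl3 and Ccl4 stood highest in the 3 neutrophil classes, Ccl5 in CD8 T and NK cells, and Ccl2 in proliferating cancer cells.

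Ccl2, the main attractant of Ccr2-bearing monocytes, had its highest mean level in proliferating cancer cells. Its level was 1333 ± 657 CPM (SD, n = 7 tumours) in proliferating cancer cells, 761 ± 423 (n = 12) in Mmp+ M2 macrophages and 605 ± 388 (n = 6) in mesenchymal cells. The ranges of these classes overlapped, from 494 to 2554 CPM in cancer cells and from 241 to 1619 in Mmp+ macrophages. Cancer and mesenchymal cells together held 63.3% of its 41067 UMIs and macrophages held 25.1%, in sums that the deeper tumours weigh on most. By group the mean share of cancer and mesenchymal cells was 58.0% in SD, 68.4% in ICB and 58.9% in BD+ICB tumours but 9.18% in BD tumours, where macrophages held 74.5%. Few such cells from the BD tumours were in the deposited table. BD 1, BD 2 and BD 3 had 2, 0 and 0 proliferating cancer cells and 8, 2 and 1 mesenchymal cells. With each cell thinned to 2000 UMIs, Ccl2 was found in 70.0% of cancer cells, 46.7% of Mmp+ macrophages and 10.1% of CD8 T cells, a class taken as the background from free RNA.

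Ccl7, which shares Ccr2 with Ccl2 and also binds Ccr1, had much the same distribution. It stood at 281 ± 209 CPM (SD, n = 12) in Mmp+ macrophages, 269 ± 101 (n = 8) in the class of other macrophages, 268 ± 176 (n = 7) in cancer cells and 212 ± 151 (n = 6) in mesenchymal cells. These 4 classes could not be ordered beyond their spread. Every neutrophil class had a mean of at most 22.4 CPM. Macrophages held a mean of 89.1% of the Ccl7 UMIs in BD tumours, where few cancer and mesenchymal cells were deposited, and of 33.6% to 41.6% in the other groups.

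The levels of Ccl2 and its neighbour Ccl7 followed each other over the 18 classes, with a Pearson r of 0.91 on log2(mean CPM + 10). Classes share libraries and tumours, so r is a description. The genes were also found in the same cells. In thinned Mmp+ macrophages 35.2% of cells with a Ccl2 UMI had a Ccl7 UMI, against 4.81% of those without, and in cancer cells the shares were 37.8% and 11.9%. Each pair of shares comes from cells of the same class at the same depth.

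Ccl12, a mouse ligand of Ccr2, was a macrophage and monocyte transcript. Its level was 303 ± 158 CPM (SD, n = 8) in other macrophages, with a lowest tumour of 124 and a highest of 645, and 98.3 ± 85.0 (n = 12) in Trem2+ M2 macrophages. Ifit+ monocytes reached 131 CPM in the only tumour with enough cells. Macrophages held 74.9% and monocytes 12.8% of its 3352 UMIs, and CD8 T cells had 1.11 CPM. In other macrophages the top 10% of cells held 77.7% of its UMIs and the median cell held 0.

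Ccl8, a chemokine of the same gene group, lies 11785 bases beyond Ccl12 and had its highest mean level in another class. Trem2+ M2 macrophages held 67.8% of its 1955 UMIs, and no other class reached 10% of them. Their level was 210 ± 264 CPM (SD, n = 12), with a lowest tumour of 6.35 (3 UMIs, the limit that a count of 0 allows), a median of 120 and a highest of 978. The next classes were CD4 T cells at 28.8 ± 52.2 and Mmp+ macrophages at 28.2 ± 29.1.

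A small number of cells carried Ccl8. Within Trem2+ macrophages, 76 of 757 cells held 98.5% of its 1326 UMIs, and 1 cell held 107. Of thinned Trem2+ cells 9.8% had a Ccl8 UMI, against 1.1% of CD8 T cells. Ccl12 was in 11.9% of thinned Trem2+ cells with Ccl8 (8 cells) and in 8.55% of those without. In other macrophages the shares were 37.5% (3 of 8 cells) and 18.9%. The levels of this neighbouring pair over 18 classes gave an r of 0.33.

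Ccl3, a ligand of Ccr1, was foremost a neutrophil transcript. It stood at 5569 ± 1965 CPM (SD, n = 8) in Hilpda+ neutrophils, 5145 ± 1727 (n = 4) in Ifit+ neutrophils and 4402 ± 3479 (n = 11) in Cxcr2+ neutrophils. These 3 classes overlapped in range. The next class, Mmp+ macrophages at 489 ± 227 (n = 12), lay wholly below the Cxcr2+ class, whose lowest tumour had 1638 CPM. Neutrophils held 72.6% of its 31815 UMIs, although a neutrophil had few UMIs (a median of 2393 in the Cxcr2+ class). Thinned to 2000 UMIs, 87.6% of Hilpda+ neutrophils and 5.0% of CD8 T cells had a Ccl3 UMI. These shares leave out 181 of 519 Hilpda+ neutrophils and 16 of 559 CD8 T cells, which had fewer UMIs than that.

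Ccl4, a leukocyte attractant whose gene lies next to Ccl3, was highest in Ifit+ neutrophils at 7073 ± 1168 CPM (SD, n = 4). Cxcr2+ neutrophils had 3658 ± 3998 (n = 11) and ranged from 409 to 13576, and Hilpda+ neutrophils had 3312 ± 1651 (n = 8). Macrophages held 28.9% of its 30657 UMIs and neutrophils 53.1%. In Cxcr2+ neutrophils the top 10% of cells held 82.2% of the Ccl4 UMIs, against 60.1% of the Ccl3 UMIs.

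The class levels of Ccl3 and Ccl4 gave an r of 0.95 over 18 classes; the part of reads shared between them in this was not tested. Of thinned Cxcr2+ neutrophils with Ccl3, 55.8% (192 of 344) had Ccl4, against 17.1% of those without. In Ifit+ neutrophils the shares were 83.6% and 31.2%, and in Mmp+ macrophages 63.3% and 26.7%.

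**Figure D2:**
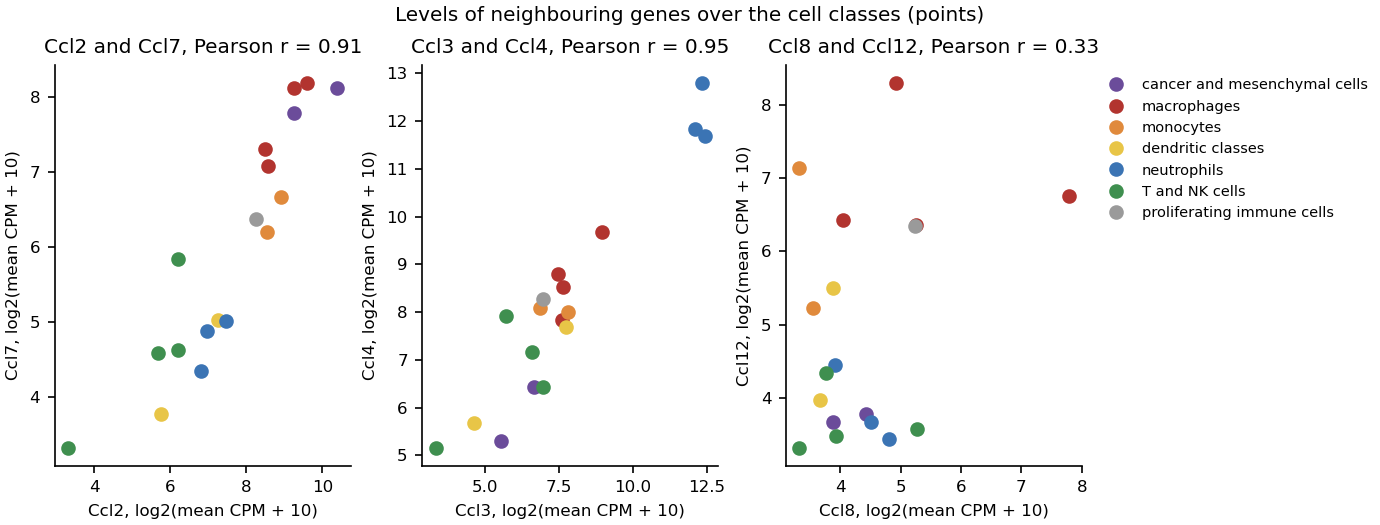
Levels of 3 pairs of neighbouring chemokine genes, as log2(mean CPM + 10), with 1 point for each of 18 cell classes coloured by compartment. Ccl2 and Ccl7 (r = 0.91) and Ccl3 and Ccl4 (r = 0.95) rose along a line from class to class. Ccl8 and Ccl12 (r = 0.33) had different leading classes by mean level, both of macrophages. With at least 30 cells per tumour and class both led in Trem2+ M2 macrophages.

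Ccl5 (RANTES), a ligand of Ccr1, was highest in lymphocytes among the classes with at least 2 tumours. Its level was 4514 ± 1278 CPM (SD, n = 8) in CD8 T cells, 3449 ± 1222 (n = 6) in NK cells and 1981 ± 2311 (n = 6) in CD4 T cells. The CD4 mean rests on a single tumour, ICB 1, at 6633 CPM, and the other 5 lay between 421 and 1622. T and NK cells held 65.1% of its 36643 UMIs, macrophages 16.1% and the dendritic classes 11.0%. In BD tumours the mean shares were 23.5% for T and NK cells, which were 5.60% of the cells there, and 68.7% for macrophages, which were 56.9%. Ifit+ monocytes had 1623 CPM in 1 tumour. Thinned, 80.1% of CD8 T cells, 70.2% of NK cells and 5.3% of Cxcr2+ neutrophils had a Ccl5 UMI, as did 82.4% of the 17 Batf3+ dendritic cells, a class with too few cells for a level per tumour. A CD8 T cell held a median of 15 Ccl5 UMIs and at most 613.

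In Trem2+ macrophages Ccl5 was uneven between tumours and between cells. Its lowest tumour had 31.3 CPM, the median 178 and the highest, BD+ICB 2, 3251. The top 10% of these cells held 85.5% of its UMIs there.

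The receptors differed most in neutrophils, which had Ccr1 and almost no Ccr2, whereas monocytes and macrophages had both. Ccr1 stood at 1123 ± 235 CPM (SD, n = 8) in Hilpda+, 1083 ± 51.3 (n = 4) in Ifit+ and 1005 ± 279 (n = 11) in Cxcr2+ neutrophils. Vcan+ monocytes had 492 ± 78.6 (n = 7), Nos2+ cells named dendritic 376 ± 47.5 (n = 6), and the macrophage classes had means from 246 to 287. Cancer cells had 15.5 ± 11.1 (n = 7) and CD8 T cells 38.5.

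Ccr2, by contrast, was near the floor in neutrophils, at 2.39 CPM in Hilpda+ and 2.38 in Cxcr2+ cells. It stood at 343 ± 107 CPM (SD, n = 10) in M1 macrophages, 325 ± 38.5 (n = 7) in Vcan+ monocytes, 306 ± 71.7 (n = 6) in Nos2+ cells and 202 ± 93.9 (n = 8) in other macrophages. Trem2+ and Mmp+ M2 macrophages had 190 ± 78.4 and 126 ± 74.5 (n = 12 each). Neighbours in this order overlapped. Regulatory T cells gave 646 CPM in the only tumour with enough of them (10 cells), above the highest tumour of M1 macrophages (576). Neutrophils held 30.4% of the Ccr1 UMIs and 0.205% of the Ccr2 UMIs.

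At 2000 UMIs per cell, 79.4% of Cxcr2+ neutrophils had a Ccr1 UMI and 1.0% a Ccr2 UMI, and in Vcan+ monocytes the shares were 52.8% and 42.6%. Among thinned Vcan+ monocytes, 48.3% of those with Ccr1 had Ccr2, against 36.2% of those without. In M1 macrophages the shares were 39.0% and 43.3%, so cells with one receptor did not hold the other more often there. Over 18 classes the 2 receptors gave an r of 0.02.

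**Figure D3:**
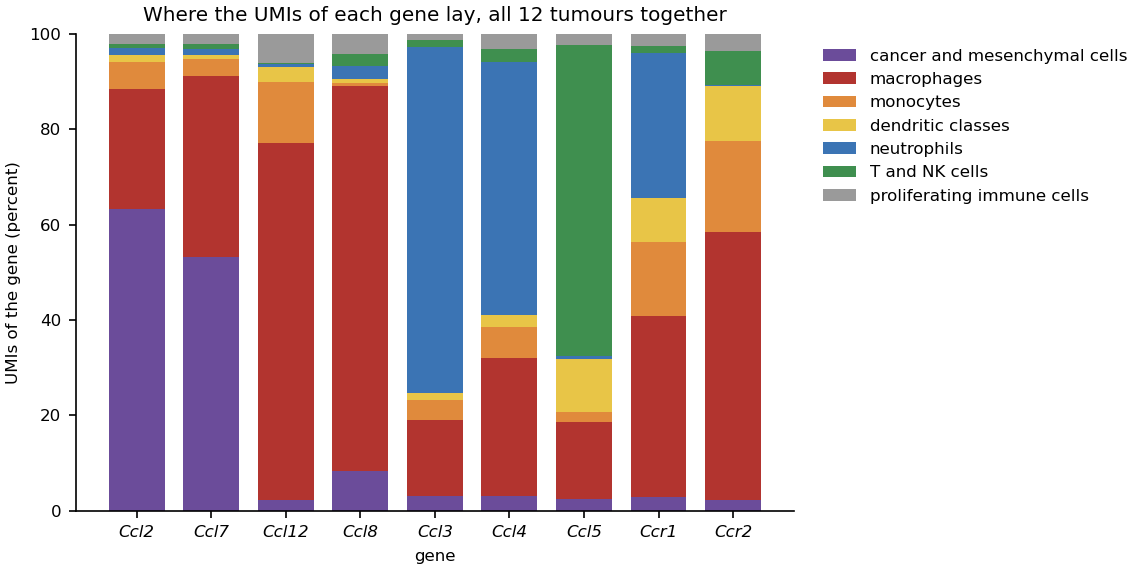
Share of each gene's UMIs (percent, stacked to 100) by compartment, over the deposited cells of all 12 tumours. Cancer and mesenchymal cells held 63.3% of the Ccl2 and 53.3% of the Ccl7 UMIs, and neutrophils 72.6% of the Ccl3 and 53.1% of the Ccl4 UMIs. T and NK cells held 65.1% of the Ccl5 UMIs, and macrophages most of the Ccl8, Ccl12 and Ccr2 UMIs. The shares of Ccl2, Ccl7 and Ccl5 differed in BD tumours. There few cancer and mesenchymal cells were deposited, and they held a mean of 9.18% of the Ccl2 UMIs.

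The genes with the class pattern most like each member were found among 6044 genes of at least 50 CPM in 1 class, by Pearson r over the 18 classes. Ccl3 was nearest to Map3k8 (r = 0.96), Tmem38b (0.95) and Tnf (0.95), and Ccl4 to Tnf (0.93), Ccrl2 (0.92) and Oser1 (0.91). Ccl12 was nearest to the macrophage genes Ms4a7 (0.95), Tnfrsf11a (0.94) and Msr1 (0.93). Genes near to Ccr2 included Eif4e3 (0.94) and Dok2 (0.92), and Ccr1 was nearest to Ets2, Mapkapk2 and Mcl1 (0.96 each). The nearest genes of Ccl2 were Vapa (0.95), Tubb6 (0.93) and Mcfd2 (0.92), and those of Ccl7 were Vat1 (0.92), Rcan1 (0.89) and Cav2 (0.89). Ccl5 and Ccl8 had lower values, led by Rnaset2b (0.89) and by Gas6 (0.81).

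The first comparison asked what butanediol diet did without blockade, BD against SD. Within classes no member passed the test. UMI counts were summed per tumour and class and tested with edgeR's quasi-likelihood test, with Benjamini-Hochberg adjustment over all genes of the class at a threshold of 0.05, in the 4 classes with enough tumours. None of 31 pairs of gene and class was called, where 0.0309% of all pairs were. Without adjustment 4 pairs had a p under 0.05, and DESeq2 called 1. The median log2 difference of the 31 pairs was -0.27.

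The pair nearest to the threshold was Ccl3 in Mmp+ macrophages, which DESeq2 called. It had 879, 586 and 351 CPM in the SD tumours and 278, 254 and 127 in the BD tumours, and the groups did not overlap. The difference was -1.58 ± 0.33 (log2, SE; adjusted p = 0.216). In the other library the same class had 685, 820 and 523 CPM in ICB and 488, 481 and 403 in BD+ICB tumours, all above the BD values. Ccl4 in this class had 1977, 1202 and 457 CPM in SD and 575, 307 and 39.4 in BD tumours, groups that overlapped, at -2.09 ± 0.85 (adjusted p = 0.565).

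Over all deposited cells of a tumour the receptor Ccr2 was higher under the diet, and no other member was called. It stood at 89.9, 86.3 and 87.6 CPM in the SD tumours and at 216, 110 and 235 in the BD tumours, with no overlap. The rise was 1.27 ± 0.32 (log2, SE; adjusted p = 0.0188). In these sums more cells of a type and more RNA per cell cannot be told apart. This was 1 of 9 members, where 21.3% of all genes were called (11.1% raised), a share no larger than the background. The call was lost without BD 1 (adjusted p = 0.0596), BD 3 (0.0772), SD 1 (0.0575), SD 2 (0.0572) or SD 3 (0.0535), and with no filter on low counts (0.0591).

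The makeup of the tumours moved with this rise. The mean share of macrophages among cells was 31.4% in the SD group and 56.9% in the BD group. That of neutrophils, where Ccr2 was near 0, was 36.0% and 20.4%. Cancer and mesenchymal cells, where Ccr2 was also low (6.60 and 11.6 CPM), together made up 15.5% and 2.34%. Over all tumours these 2 classes held 22.5% and 11.7% of the UMIs. Every class was then set to its mean level over all tumours and weighted by its share of the tumour's UMIs, so that only these shares differed. Such a share depends on the RNA read per cell as well as on the number of cells. This makeup gave Ccr2 84.4 ± 5.36 CPM (SD, n = 3) in SD and 161 ± 14.6 in BD, beside measured means of 87.9 and 187. Inside classes the difference was 0.64 ± 0.32 in M1 macrophages (adjusted p = 0.610), where Ccr2 had 373 and 201 CPM in SD and 397 and 576 in BD tumours. It was -0.11 ± 0.26 in Trem2+ and -0.24 ± 0.77 in Mmp+ macrophages.

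The second comparison put the diet under blockade, BD+ICB against ICB. Here 1 of 91 pairs in 13 classes was called, where 0.307% of all pairs were, and 10 had an unadjusted p under 0.05. This was Ccl3 in CD4 T cells, at 301, 127 and 194 CPM (52, 14 and 26 UMIs) in ICB and 33.9, 32.4 and 0 (8, 15 and 0 UMIs) in BD+ICB tumours. A count of 0 allowed up to 34.1 CPM in that tumour. The groups did not overlap and the difference was -2.88 ± 0.43 (log2, SE; adjusted p = 0.00506).

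Markers of neutrophils, the cells with most Ccl3, moved with it in these CD4 T cells. In ICB tumours 4 to 6 of 8 neutrophil markers were above 20 CPM with a summed level of 3348 to 7199 CPM, and in BD+ICB tumours 2 to 3 of 8 with 227 to 606 CPM. From 1 to 3 of the 8 markers were at 0 in ICB and from 2 to 4 in BD+ICB tumours. Under a stricter hashtag rule, which leaves out cells whose leading hashtag is below 10 counts or under 3 times the second, Ccl3 in the ICB tumours was 21.3, 0 and 8.02 CPM (3, 0 and 1 UMIs in 24, 11 and 24 cells). The BD+ICB values were then 5.82, 32.9 and 0 CPM, the summed neutrophil markers 242 to 409 and 192 to 250 CPM, and the gene was too low to be tested. Among cells with a clear hashtag the ICB tumours thus no longer lay above the BD+ICB tumours. The difference also missed the threshold without BD+ICB 2 (-3.13, adjusted p = 0.0586) or ICB 1 (-2.47, 0.0642).

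CD8 T cells had the same direction for Ccl3 without passing the test. The levels were 155, 95.2 and 77.8 CPM in ICB and 35.5, 40.4 and 33.3 in BD+ICB tumours (-1.63 ± 0.46, adjusted p = 0.250). Neutrophil markers summed to 1850 to 3070 CPM in ICB and 154 to 253 CPM in BD+ICB CD8 T cells, and their part in the difference was not tested.

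Other values under blockade stayed on the far side of the threshold. Ccl12 in other macrophages had 220, 124 and 217 CPM in ICB and 644 and 364 in the 2 BD+ICB tumours with enough cells, at 1.45 ± 0.30 (adjusted p = 0.447). Ccl5 in CD8 T cells had 4600, 5163 and 6216 CPM in ICB and 3153, 4603 and 4869 in BD+ICB tumours, groups that overlapped, at -0.32 ± 0.33 (adjusted p = 0.860). Over whole tumours edgeR called 0 of 9 members, where 6.48% of all genes were called, with 1 at an unadjusted p under 0.05 and 0 called by DESeq2. That 1 was Ccr2, at 81.2, 74.2 and 157 CPM in ICB and 139, 163 and 187 in BD+ICB tumours (0.75 ± 0.30, adjusted p = 0.159). The makeup alone gave it 102 and 173 CPM.

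With the diet averaged over both libraries, whole-tumour Ccr2 was called at 1.01 ± 0.22 (log2, SE; adjusted p = 0.00673), and this call held without each of the 12 tumours in turn. It was 1 of 9 members, where 30.6% of all genes were called (15.4% raised). Within classes edgeR called 0 of 31 pairs, where 0.0309% of all were called, with 4 at an unadjusted p under 0.05 and 1 called by DESeq2 (Ccl3 in Mmp+ macrophages). The interaction, which tests whether the diet's difference itself differed between the libraries, was called for 0 of 31 pairs (background 0.00515%) and 0 of 9 whole-tumour sums (background 0%). It had 5 and 0 unadjusted p-values under 0.05, and DESeq2 called 0 in both.

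**Figure D4:**
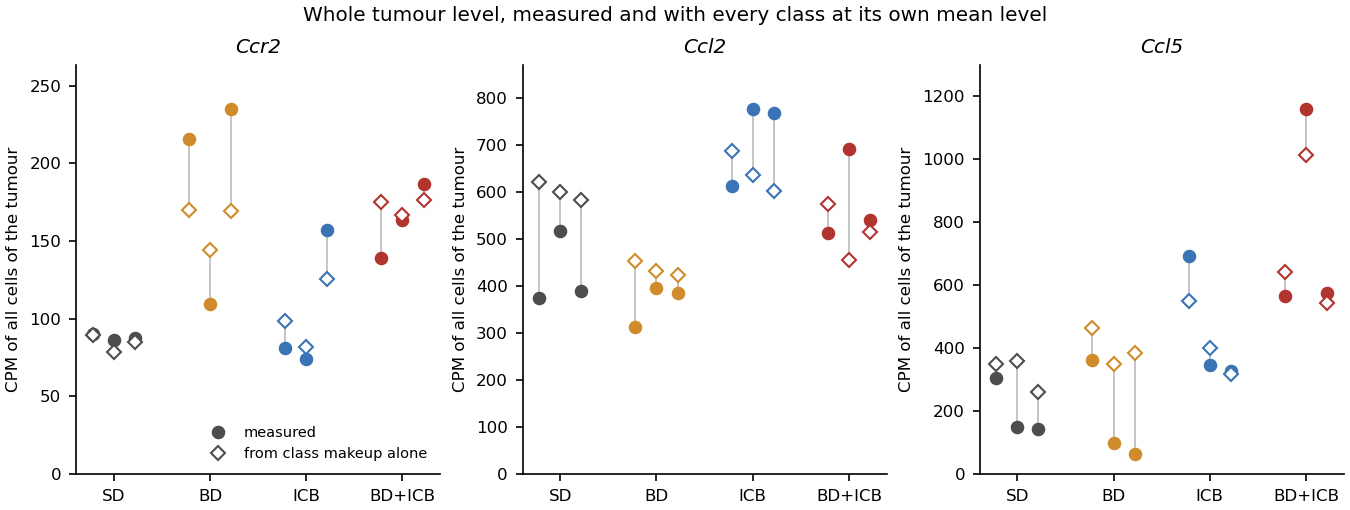
Level of Ccr2, Ccl2 and Ccl5 over all deposited cells of each tumour (filled points, CPM). Each is joined to the level that the tumour's makeup, as the share of UMIs in each class, gives with every class at its mean level (open diamonds). For Ccr2 the makeup gave means of 84.4 CPM in SD and 161 in BD tumours, and the BD tumours lay on both sides of it.

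ICB and SD tumours differ by blockade and by library, and the values that follow cannot be assigned to either. Within 12 classes 3 of 84 pairs were called, where 2.44% of all pairs were, a share near the background. Ccl4 rose in Hilpda+ neutrophils, from 1169, 2493 and 1974 CPM in SD to 3796, 3052 and 5843 in ICB tumours, without overlap (1.22 ± 0.25, adjusted p = 0.00767). The single BD and BD+ICB tumours with enough of these cells had 5521 and 2653. Summed neutrophil markers were 96558 to 102250 CPM in SD and 77704 to 98386 in ICB tumours, with 8 of 8 above 20 CPM in each tumour, and their part was not tested. It missed the threshold with at least 30 cells per tumour (0.97, adjusted p = 0.0866), with the stricter hashtag rule (1.32, 0.0825) and without SD 3 (1.23, 0.0644).

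The other 2 called pairs were of Ccr1, in opposite directions. In other macrophages Ccr1 rose from 142 and 159 CPM in SD to 317, 280 and 236 in ICB tumours (0.83 ± 0.22, adjusted p = 0.0265). All 10 macrophage markers were above 20 CPM in each of these tumours, and their summed level was 22333 to 24347 CPM in SD and 8855 to 14504 in ICB. Their part in the result was not tested. This call ended with DESeq2 (adjusted p = 0.0999), with the stricter hashtag rule (0.0621) and without ICB 1 (0.0720), ICB 2 (0.0527), SD 1 (0.212) or SD 3 (0.0551).

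In mesenchymal cells Ccr1 fell from 27.9, 57.0 and 53.0 CPM in SD to 18.0, 19.6 and 27.6 in ICB tumours (-1.25 ± 0.30, adjusted p = 0.0340). The lowest SD and the highest ICB tumour were nearly level. Macrophage markers summed to 1976 to 3841 CPM in the SD tumours, with 8 to 9 of 10 above 20 CPM and none at 0. In the ICB tumours they summed to 97.4 to 827 CPM, with 2 to 6 of 10 above 20 CPM and at most 1 at 0. Neutrophil markers summed to 2118 to 6393 CPM in SD and 1582 to 4258 in ICB tumours, with 4 to 6 and 1 to 5 of 8 above 20 CPM. Of these, S100a8 had 270, 802 and 1589 CPM in SD and 9.27, 122 and 426 in ICB tumours. The part of such cells in the fall was not tested. The threshold was missed with the stricter hashtag rule (-1.45, adjusted p = 0.0784) and without ICB 1 (0.0872), ICB 2 (0.146), SD 2 (0.147) or SD 3 (0.143).

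In whole tumours Ccl2 was the member called between ICB and SD, 1 of 9, where 2.89% of all genes were (1.34% raised). It rose from 373, 518 and 390 CPM to 612, 776 and 767, without overlap (0.70 ± 0.17, adjusted p = 0.0465). The makeup alone gave 601 CPM in SD and 641 in ICB tumours. In cancer cells, the class with its highest mean level, Ccl2 had 494 and 846 CPM in SD and 1351, 1049 and 1585 in ICB tumours, at 0.95 ± 0.42 (adjusted p = 0.530).

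The whole-tumour call on Ccl2 held in only 4 of 12 runs that left out 1 tumour. It was lost without SD 1, SD 2, SD 3, ICB 2, ICB 3, BD 3, BD+ICB 1 or BD+ICB 3, with adjusted p-values of up to 0.169 and log2 differences of 0.60 to 0.87. It was also lost with only the tumours of the 2 groups (0.0636), with the stricter hashtag rule (0.0580) and without the neutrophil classes (0.0559).

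BD+ICB and BD tumours, again from different libraries, had 4 called pairs of 31, where 2.29% of all pairs were called. Ccr2 fell in Trem2+ M2 macrophages, from 320, 136 and 221 CPM in BD (76, 20 and 33 cells) to 52.8, 82.0 and 125 in BD+ICB tumours (44, 23 and 18 cells). The groups did not overlap, and the SD tumours (243, 233 and 240) and ICB tumours (157, 223 and 244) also lay above all BD+ICB values. The difference was -1.48 ± 0.31 (log2, SE; adjusted p = 0.0109), where 3.94% of genes of that class were called. It kept its call in 7 of 7 alternatives and was lost only without BD+ICB 1 (-1.10, adjusted p = 0.0948) among the runs that left out a tumour. Under the stricter hashtag rule the groups overlapped: BD+ICB 3 stood at 154.3 CPM, above BD 2 (136.3) and ICB 1 (154.1). Against ICB, within the library, Ccr2 in this class was at -1.30 ± 0.32 (adjusted p = 0.216). Monocyte markers summed to 2103 to 2770 CPM in BD and 883 to 2441 in BD+ICB tumours, with 3 to 5 and 5 to 6 of 7 above 20 CPM and at most 3 at 0, and their part was not tested.

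In the same macrophages Ccl3 rose, from 111, 121 and 99.7 CPM in BD to 201, 415 and 173 in BD+ICB tumours (1.31 ± 0.34, adjusted p = 0.0325). The SD tumours, at 132, 250 and 195 CPM, and the ICB tumours, at 149, 266 and 175, covered much of the BD+ICB range. Neutrophil markers summed to 3931 to 6266 CPM in BD and 5251 to 6563 in BD+ICB tumours, with 3 to 6 and 3 to 4 of 8 above 20 CPM and 1 to 4 of them at 0 in either group. Their part was not tested. The pair was no longer called with the stricter hashtag rule (adjusted p = 0.0530) and without BD 1 (0.0814), BD 2 (0.104), BD 3 (0.170), BD+ICB 2 (0.83 log2, 0.229) or ICB 3 (0.0545).

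Cxcr2+ neutrophils had the other 2 calls, a chemokine and its receptor, where 3.14% of genes of that class were called. Ccl3 had 4203 and 1702 CPM in the 2 BD tumours with enough cells and 6548, 13324 and 5969 in BD+ICB tumours (1.76 ± 0.43, adjusted p = 0.0287). The SD tumours had 1638, 1842 and 2101 CPM and the ICB tumours 2372, 3057 and 5668. All 3 BD+ICB values thus lay above every other tumour. Ccl3 was no longer called with RLE size factors (1.68, adjusted p = 0.0531), the stricter hashtag rule (2.22, 0.172) and without BD 3 (1.30, 0.175), SD 1 (1.68, 0.0666) or SD 2 (1.71, 0.0555). Against ICB, within the library, the difference was 1.28 ± 0.35 (adjusted p = 0.176), a pair that DESeq2 called.

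Ccr1 in Cxcr2+ neutrophils had 438 CPM in BD 2 (15 cells) and 851 in BD 3 (12 cells), against 1229, 1247 and 1404 in BD+ICB tumours (1.30 ± 0.33, adjusted p = 0.0197). The SD tumours had 1016, 676 and 922 CPM. The call was lost with only the tumours of the 2 groups (1.01, adjusted p = 0.101) and without BD 2 (0.89, 0.446), BD+ICB 3 (1.14, 0.101) or SD 3 (1.24, 0.0516). Neutrophil markers summed to 141460 to 145196 CPM in BD and 100125 to 126116 in BD+ICB tumours, with 8 of 8 above 20 CPM in each tumour, and genes of the dissociation response to 7121 to 7456 and 6742 to 9989. Their part was not tested, and the median log2 difference of all genes of this class was 0.14. Ccl4 in the same cells had 409 and 2188 CPM in BD and 13576, 7177 and 6040 in BD+ICB tumours and did not pass (3.07 ± 0.97, adjusted p = 0.172).

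Over whole tumours edgeR called 0 of 9 members between BD+ICB and BD, where 8.8% of all genes were called. At an unadjusted p under 0.05 there were 2, Ccl2 (0.58 ± 0.17, adjusted p = 0.0562) and Ccl5 (2.01 ± 0.64, adjusted p = 0.0845), and DESeq2 called both. Ccl5 had 361, 97.9 and 62.4 CPM in BD and 566, 1158 and 574 in BD+ICB tumours, without overlap. T and NK cells made up 5.60% of the BD and 24.7% of the BD+ICB cells, as group means. With the makeup alone, taken as shares of UMIs, Ccl5 would stand at 398 and 732 CPM.

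**Figure D5:**
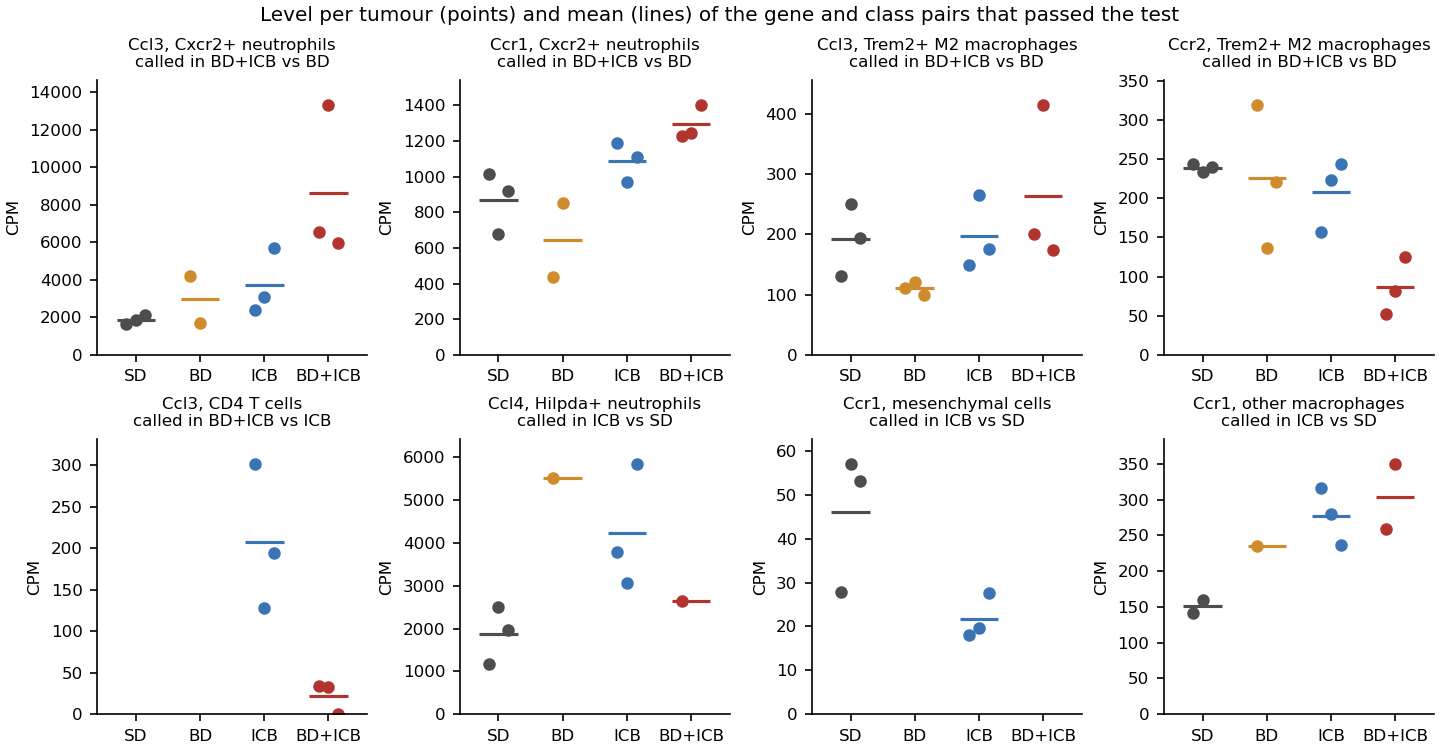
Level per tumour (points, CPM) and mean (lines) in the 4 groups for the 8 pairs of gene and class that passed the test within a class; a group without points had no tumour with at least 10 cells. All 3 BD+ICB tumours lay above every other tumour for Ccl3 in Cxcr2+ neutrophils and below every other tumour for Ccr2 in Trem2+ macrophages. Under the stricter hashtag rule, not drawn here, Ccr2 in BD+ICB 3 (154.3 CPM) lay above BD 2 (136.3) and ICB 1 (154.1).

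Genes around the members in the pathway were followed in 4 lists, first within classes. Of the 13 other CC chemokines none was called between diets in any class by edgeR, with 0 of 10 pairs at an unadjusted p under 0.05 for BD against SD and 7 of 32 for BD+ICB against ICB. Ccl9, a Ccr1 ligand, rose in ICB against SD tumours in other macrophages (1.14 ± 0.23, adjusted p = 0.00685) and Hilpda+ neutrophils (3.22 ± 0.79, adjusted p = 0.0156). These were 2 of 31 pairs, where 2.44% of all pairs were called. In Hilpda+ neutrophils Ccl9 was near the floor in SD tumours, at 0, 10.5 and 5.09 CPM, beside 74.1, 45.6 and 51.7 in ICB tumours. Of the 12 other receptors, Ccrl2, an atypical receptor that signals little, was the gene called within classes. It rose in NK cells of ICB against SD tumours (4.12 ± 0.73, adjusted p = 7.99e-06), 1 of 26 pairs, where 2.44% of all pairs were called. There it had 0 and 24.5 CPM in SD 1 and SD 2 (21 and 13 cells) and 264 and 131 in ICB 1 and ICB 3 (24 and 13 cells). The part of neutrophil RNA in this rise was not tested. Ccrl2 also rose in Cxcr2+ neutrophils of BD+ICB against BD tumours (1.59 ± 0.39, adjusted p = 0.0245), 1 of 8 pairs, where 2.29% of all pairs were called. It fell in CD8 T cells of BD+ICB against ICB tumours (-2.59 ± 0.42, adjusted p = 0.00615), 1 of 28 pairs, where 0.307% of all pairs were called. Neutrophil markers in these CD8 T cells also differed as given above.

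Among 20 genes of chemokine receptor signalling, 0 pairs were called by edgeR for either diet comparison (5 of 67 and 19 of 210 at an unadjusted p under 0.05). In mesenchymal cells of ICB against SD tumours Rac2, a GTPase of leukocyte movement, fell by 1.35 ± 0.27 on the log2 scale (adjusted p = 0.0157), and Arrb2 and Gnb2 also fell. These were 3 of 184 pairs, a share below the 2.44% of all pairs called, and the macrophage and neutrophil markers given above for these cells differed beside them. Rgs1, which dampens G protein signals, fell by 1.26 ± 0.32 in Trem2+ macrophages of BD+ICB against BD tumours (adjusted p = 0.0403), 1 of 67 pairs, a share below the 2.29% of all pairs.

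Among 20 inducers of CC chemokines (cytokines, Toll-like receptors and transcription factors), 12 of 177 pairs rose and 1 fell in ICB against SD tumours, where 2.44% of all pairs were called. Il1a, an inflammatory cytokine, rose in Hilpda+ neutrophils (1.41 ± 0.25), in Cxcr2+ neutrophils (1.62 ± 0.37) and in other macrophages (2.03 ± 0.51). In BD+ICB against BD tumours 4 of 65 pairs rose, where 2.29% of all pairs were called. Among them was Irf1, an interferon-responsive transcription factor, in Mmp+ macrophages (1.45 ± 0.32, adjusted p = 0.0246). In BD+ICB against ICB tumours Irf1 rose in cancer cells (0.61 ± 0.12, adjusted p = 0.0267), and Il1a, Tlr2 and Tnf fell in CD8 T cells, 1 raised and 3 lowered of 192 pairs, where 0.307% of all pairs were called. Neutrophil markers in these CD8 T cells summed to 1850 to 3070 CPM in ICB and 154 to 253 in BD+ICB tumours, and their part in the falls was not tested. For BD against SD, 0 of 65 pairs were called by edgeR, with 8 at an unadjusted p under 0.05.

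In whole tumours, where the makeup moved too, more listed genes were called for the diet. For BD against SD, 10 of 20 signalling genes, 6 of 19 inducers tested, 2 of 3 other receptors and 1 of 8 other chemokines rose and none fell, where 11.1% of all genes were raised. The median log2 difference was 0.55 for the signalling genes and 0.67 for the inducers, beside 0.03 over all genes. For BD+ICB against ICB the counts raised by edgeR were 3 of 20, 4 of 19, 1 of 3 and 0 of 8, the last also with 0 at an unadjusted p under 0.05. In that comparison 325 of all 11988 genes tested were raised. Among the genes called for BD against SD were Tlr2, which senses bacterial lipoproteins (0.91 ± 0.13, adjusted p = 0.00113), Pik3cg, the kinase downstream of G protein-coupled receptors (0.87 ± 0.18, adjusted p = 0.00624), and Ccl9 (1.46 ± 0.30, adjusted p = 0.00754). The part of the makeup in these rises was not tested.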

How the data were processed

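The deposited gene matrices and expression table hold UMI counts per gene and cell. Per the file headers, Cell Ranger 6.1.1 wrote the matrices, and R 4.1 and mm10 are named in the submitters' processing notes. Cell classes, tumours and the percent of mitochondrial UMIs per cell are the authors' deposited annotation, with clustering settings not given in the sources used here. No doublet caller was run.

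Counts were summed per tumour and class (at least 10 cells) or per tumour, and CPM is the sum scaled to the UMI total of that class and tumour (per 1000000). edgeR 4.0.16 (TMM, filterByExpr, robust quasi-likelihood, 4 groups in 1 model, limma 3.58.1, R 4.3.3) was fitted to all genes of a class with at least 2 tumours in each group compared; p-values are Benjamini-Hochberg adjusted over those genes at 0.05. SE is the log2 difference over the root of F. In each comparison 5 to 26 pairs of member and class were below the filter on low counts. Alternatives were DESeq2 1.42.0, RLE size factors, no filter, at least 1000 UMIs per cell, at least 30 cells, a stricter hashtag rule (5325 cells), a replicate block, only the tumours of the groups compared, sums without neutrophils, and leaving out each tumour. The script was tested on simulated data. Thinning left out cells under 2000 UMIs. Coordinates and promoters are RefSeq's (GRCm38.p6).

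The members and gene lists were chosen with earlier results of these data known. All members were named in every class fitted; of the listed genes, those called were named, up to 4 per list and class, and 3 similar genes per member; the results of some genes that this rule takes up are not reported here.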

Additional observations from a re-analysis of the deposited data

Results flagged for a closer look

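The gene matrices hold 30883 barcodes outside the deposited table of cells, with 86.5% of all UMIs, and every member was found there. These barcodes were not assigned to a class or tumour, and no group can be compared in them. Ccl2 stood at 589 CPM outside, beside 591 in the deposited cells, and Ccl7 at 142 beside 150, so that 86.5% and 85.8% of their UMIs lay outside. Ccl8, read mainly from macrophages in the deposited cells, stood at 18.7 CPM outside and 28.1 inside, with 81.0% of its UMIs outside. The other genes read mainly from leukocytes were further below their level inside: Ccl3 at 22.2 CPM beside 458, Ccl4 at 31.7 beside 441, Ccl5 at 41.5 beside 527, Ccl12 at 7.38 beside 48.2, Ccr1 at 13.4 beside 235 and Ccr2 at 7.39 beside 126. No control barcodes exist for this signal, and each value is above the limit that a count of 0 allows. No diet by blockade interaction of a member passed the test, and groups of 3 tumours are too small for a test of outlying tumours.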

How the results depend on the processing

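No result kept its test and changed direction under an alternative; Ccl3 in CD4 T cells had no test under the stricter hashtag rule, where the ICB tumours (21.3, 0 and 8.02 CPM) no longer lay above the BD+ICB tumours (5.82, 32.9 and 0). Counts of called members follow, with the range over runs leaving out 1 tumour. Within classes, BD against SD went from 0 to 1 with DESeq2, no filter or the replicate block (all Ccl3 in Mmp+ macrophages; 0 to 1), and the averaged diet from 0 to 1, 2 and 1 under the same settings (0 to 2). BD+ICB against ICB went from 1 to 2 with DESeq2, 8 with no filter, 2 with only those groups, 3 with the block and 0 with the stricter hashtag rule (0 to 4). ICB against SD went from 3 to 1 at 30 cells (Ccl3 in Cxcr2+ neutrophils), 8 with no filter, 5 with only those groups, 10 with the block and 1 with the stricter hashtag rule (Ccl5 in Cxcr2+ neutrophils; 0 to 5). BD+ICB against BD had 4 and from 3 (RLE) to 6 (no filter) over the settings, with 2 of the 4 shared under the stricter hashtag rule (2 to 4; 2 without BD 2 or BD 3). In whole tumours BD against SD went from 1 to 0 with no filter and 2 with the block or without neutrophils, which added Ccr1 (0 to 1). The averaged diet went from 1 to 2 without neutrophils (1 to 2). BD+ICB against ICB went from 0 to 1 with the block (Ccr2) or without neutrophils (Ccr1; 0 to 1). ICB against SD went from 1 to 0 with only those groups, the stricter hashtag rule or without neutrophils (0 to 1). BD+ICB against BD went from 0 to 2 with DESeq2 or the block and 1 with no filter (0 to 1). The interaction stayed at 0 in every setting (0 to 0). Tumours share only a number: same-numbered tumours correlated at 0.22, 0.053 and 0.033 (SD with BD) and 0.15, 0.034 and 0.27 (ICB with BD+ICB), and the block ended none of the 11 calls. Ccl3 in CD4 T cells had no test at 30 cells either. The leading class held for 9 of 9 members with at least 1000 UMIs or the stricter hashtag rule and for 5 of 9 at 30 cells. At 30 cells Mmp+ macrophages led for Ccl2, Hilpda+ neutrophils for Ccl4, Trem2+ macrophages for Ccl12 and Vcan+ monocytes for Ccr2. Limits are 3 tumours a group, as few as 70 cells in a tumour, blockade confounded with library, and diet confounded with listed tumour size.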

Other observations

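CC genes outside the 9 members had sources of their own in these cells, given here as levels with no test. Ccl6 was highest in Mmp+ M2 macrophages (1181 ± 1095 CPM, SD, n = 12) and Ccl9 in Ifit+ monocytes (969 CPM in 1 tumour). Ccl17 and Ccl22, ligands of Ccr4, were highest in the class of other dendritic cells (291 ± 237 and 154 ± 180 CPM, n = 7), as was Ccr7 (262 ± 155 CPM), which guides dendritic cells to lymph nodes. Ccl1 was highest in CD4 T cells (960 ± 1169 CPM, n = 6), and its receptor Ccr8 in regulatory T cells (103 CPM in 1 tumour). Ccrl2 was highest in Ifit+ neutrophils (3623 ± 1470 CPM, n = 4), the class that also led for Ccl4. Ackr4 was not in the expression table and was not analysed here.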
